A study of Rattus norvegicus with 8 samples.

Results

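The members described here are 53 rat genes of the early secretory pathway, listed by function: the signal recognition particle (SRP) and its receptor, the translocon, signal peptidase, the COPII and COPI vesicle coats, the TMED cargo receptors, further cargo and retrieval receptors, and the secretory enzymes Cpd and Mttp. Of these 53 genes, 51 had at least 1 probe set annotated to that gene alone, out of 14217 genes so measured. Sec23a and Sec24a had none. The list was drawn up with earlier results of the same diet comparison known, in which Srp72, Sar1b, Cpd and Tmed9 had already stood out, so the diet differences of the members are given as a description and support nothing by themselves.

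The data were 8 liver expression arrays, 1 per rat, from male Sprague-Dawley rats aged 7 weeks. For 2 weeks the control rats ate a commercial rodent chow (CRF-1) to which cholesterol (10 g/kg) and cholic acid (5 g/kg) had been added, and the L. brevis rats ate this feed with Lactobacillus brevis 119-2, freeze-dried, at 10 g/kg. Each diet was given to 11 rats, and 4 arrays per diet, called biological replicates by the labels, were analysed here. All rats thus carried the cholesterol and cholic acid load, per the series' design text, although the controls' own source label mentions CRF-1 and nothing else. Whole liver was measured, so a change in the number of cells of a type and a change in RNA per cell cannot be told apart.

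Proteins destined for secretion or for membranes are recognised by SRP as their signal peptide leaves the ribosome, and are handed through the SRP receptor to the Sec61 channel of the endoplasmic reticulum (ER), where signal peptidase removes the signal. COPII vesicles then carry folded cargo to the Golgi, and COPI vesicles return escaped ER proteins and receptors. Hepatocytes use this route at high load for albumin, coagulation factors and lipoproteins.

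Several of these genes are known targets of the unfolded protein response, so the promoter windows of the members (250 bases before to 50 after the start, RefSeq, GRCr8) were searched for its motifs on both strands. A window was listed for 46 of the 53 members. The core of the unfolded protein response element, TGACGTGG, the site of ATF6 and XBP1, was in 5 of the 46 windows, 10.9%, against 0.595% of 33469 windows of all genes and 0.604% of 21851 windows of protein-coding genes. The longer ER stress elements ERSE and ERSE-II, both of which join a CCAAT box to CCACG, were in 0 of the 46 windows, and in 0.0657% and 0.0508% of all windows. The letters CCACG are also part of the core motif on its other strand. Alone they were in 58.7% of the members' windows, against 31.6% of all windows and 35.5% of those of protein-coding genes. The related motif TGACGTCA (CRE) was in 1 window, that of Cope, 2.17% against 1.83% of all windows. The windows compared were not matched for base composition. The 5 stretches with the core are shown because 3 of them belong to subunits of the same COPI coat. They are given on the strand of the gene, with the core in capitals, and a core on the other strand reads CCACGTCA.
Copa, the alpha subunit, chr13:87078887-87078916, + strand: cctggggtagcTGACGTGGagcctttggga
Copb1, the beta subunit, chr1:177872828-177872857, - strand: cccgcctccttCCACGTCAgccaaggactc
Copb2, the beta' subunit, chr8:108040666-108040695, + strand: tcccggaagttCCACGTCAgtgggtccact
Srp19, an SRP subunit, chr18:26205722-26205751, + strand: cgtccttcaagCCACGTCActccgagacgg
Sec23a, of the inner COPII coat, chr6:82440977-82441006, - strand: ctcctcccattTGACGTGGcagaggcggca
In Copa the core began at base 31 of the transcript, and in the others it began before the start, by 6 bases in Copb1, 10 in Copb2, 155 in Srp19 and 91 in Sec23a. A match of letters is a description, not a site of binding. Among these 5 genes a diet difference could be measured for Copb1 alone (+0.17 log2), since Copa, Copb2 and Srp19 held 1 value on all arrays and Sec23a had no probe set.

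That limit runs through the whole table. Values are log2 signals as deposited, and 24719 of 31042 probe sets held the same value on all 8 arrays to within 0.01 log2, for a reason that the labels do not state, and such values are not read as equal RNA. The other 6323 probe sets, 20.4%, are called varying. Each gene was represented by its brightest probe set. Of the 51 members, 30 varied there, 2 more (Srprb and Arcn1) varied only at a dimmer probe set, and 19 held 1 value at every probe set. The share of 58.8% varying at the brightest probe set stood beside 26.8% over all genes. Members were bright on the arrays, with a median signal of 9.65 for the 30 varying genes and 9.42 for the other 21, against 8.57 and 6.77 over all genes. The 0.01 limit cut no close case among the members: the narrowest varying probe set was that of Sec62, with a range of 0.0913, and the widest of the others was the brightest of Srprb, with 0.00252.

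An array-wide measure and some markers of other cell types differed between the diets. The 5' minus 3' signal of the GAPDH control probe sets, which becomes less negative the more of the transcript's 5' end is represented, was -2.89, -1.83, -2.93 and -1.98 in control rats 1 to 4 and -2.20, -1.30, -0.94 and -0.68 in L. brevis rats 1 to 4. L. brevis rats 2 to 4 lay above all controls. A fit with this measure as a covariate therefore cannot fully separate it from diet. Differences from such fits, given below, are alternatives and not corrected estimates. Hepatocyte markers were bright, with summed linear signals of 115962 to 118896 in control and 115517 to 118809 in L. brevis livers over 9 of 10 genes, so the tissue label held. Alb, Serpina1 and Hpx held 1 value at their brightest probe sets, so the closeness of these sums between diets was partly fixed. The summed signal of 9 of 10 endothelial markers was 3969 to 5815 in control and 3571 to 3839 in L. brevis livers, with a narrow gap between them. All 6 varying endothelial markers were lower in L. brevis livers, with 0 past the adjusted threshold and 3 at p under 0.05 before adjustment (limma). Kdr (-0.46) and Pecam1 (-0.26) did not overlap between diets, Stab1, Stab2, Lyve1 and Vwf did, and Tek, Tie1 and Emcn held 1 value. Pearson r of the 6 with the GAPDH measure over 8 rats ran from -0.931 (Stab1) to 0.036 (Stab2). It was -0.628 for Kdr and -0.857 for Pecam1. The sums of 6 of 9 plasma and B cell markers (3456 to 5493 and 3490 to 4205), of 8 of 10 macrophage markers (4543 to 5999 and 4889 to 6151), of 10 stellate cell markers (4167 to 5705 and 3910 to 5561), of 6 of 7 cholangiocyte markers (590 to 678 and 613 to 649) and of 8 pancreatic acinar markers (936 to 1217 and 853 to 1031) overlapped. The plasma and B cell sum came mostly from Xbp1 and Sdc1, with mean log2 signals of 11.50 and 9.44 against 7.36 for Jchain. Its overlap therefore says little about the other markers of that list. Single markers within these lists did not overlap: Jchain of plasma cells was lower by 1.13 log2 on average, from 7.93 ± 0.40 to 6.80 ± 0.53, and Adgre1 of macrophages was higher by 0.65, from 7.64 ± 0.18 to 8.29 ± 0.29 (SD, n = 4 each), with adjusted p of 0.347 and 0.345 (limma). C1qb, also of macrophages, was higher by 0.73 with overlap between diets. Of the 7 varying macrophage markers 6 were higher, Clec4f by only 0.01, and 1, Cd163, was lower (-0.16). Their r with the GAPDH measure ran from -0.634 (Cd163) to 0.916 (C1qb). Krt19, Krt7, Mzb1, Ms4a1 and 7 of 8 acinar genes held 1 value. Skeletal muscle and erythroid markers were far highest in L. brevis 2, at 10164 against at most 3166 and at 20901 against at most 8202. The part of these cell types in the differences was not tested.

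The 30 varying members differed little by diet as a body, and single subunits of the same machine differed in opposite directions. The differences, L. brevis minus control, ran from -0.60 (Srp68) to +0.87 log2 (Cpd), with 19 members higher, 11 lower and a median of 0.08. Over the 3806 genes that varied at their brightest probe set, 1599 were higher and 2207 lower, with a median of -0.04. No member passed an adjusted p of 0.05 (limma over all 31042 probe sets, two-sided, Benjamini-Hochberg), where 2 of 3806 genes, 0.0525%, passed. Among the 6323 varying probe sets 7 passed, 0.111%. Over all probe sets 44 passed, 0.142%, so most of these passes were at probe sets that did not vary. Differences at such probe sets are not read, and the 0.142% is not taken as a background rate. The smallest adjusted p of the 30 was that of Tmed9, 0.0772 (limma). With varying probe sets alone in the fit 0 members passed too, the smallest adjusted p was 0.101 (limma), and 0.0633% of the probe sets passed. Before adjustment 4 members were higher and 5 lower with p under 0.05, 9 in all, beside 6.91%, 13.7% and 20.6% of the genes that varied. The 4 values of one diet lay entirely above or below those of the other in 6 members, 3 higher (Srp72, Cpd, Sar1b) and 3 lower (Srp68, Tmed9, Cope), beside 3.02% and 7.41% of the varying genes, 10.4% in all. Since the same contrast was in view when the list was made, nothing is read from these counts.

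**Figure D1:**
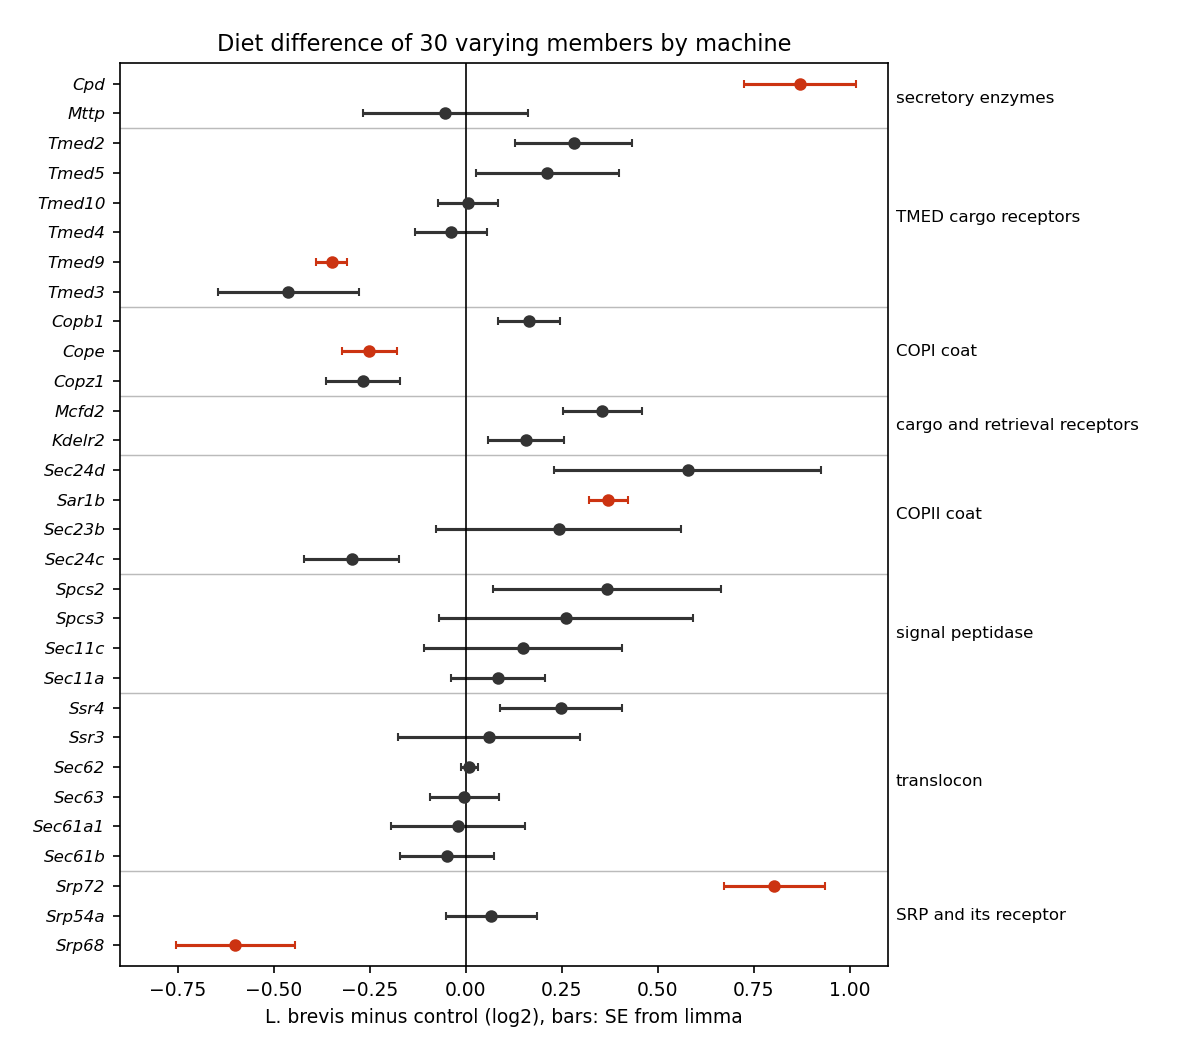
Difference in mean signal between L. brevis and control livers (log2, horizontal axis) for the 30 members that varied at their brightest probe set, grouped by machine, with standard errors from limma. Red points mark the 6 members whose diets did not overlap; they lie on both sides of 0, from -0.60 for Srp68 to +0.87 for Cpd.

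The 3 varying SRP genes had a median difference of +0.07, which was -0.027 with the GAPDH measure above as a term of the fit. The partner subunits Srp68 and Srp72, which bind each other and the particle's RNA, differed in opposite directions. Srp72 had 8.31, 8.44, 8.60 and 8.90 in control rats 1 to 4 and 9.29, 9.32, 9.48 and 9.38 in L. brevis rats 1 to 4. Every L. brevis value was above every control value, and the means of 8.56 ± 0.25 and 9.37 ± 0.08 (SD, n = 4 each) differed by +0.80 (SE 0.13, adjusted p = 0.222, limma), 1.75-fold. Its other 2 probe sets held 8.51 and 8.13 on all arrays, so the difference rests on 1 probe set. Srp68 had 8.82, 8.72, 8.91 and 8.94 in controls and 8.54, 7.90, 8.44 and 8.11 in L. brevis rats. All L. brevis values were lower, with L. brevis 2 lowest, and the difference was -0.60 (SE 0.15, adjusted p = 0.345, limma), 1.51-fold. With this GAPDH covariate the differences were +0.66 for Srp72 and -0.44 for Srp68. Srp72 passed the adjusted threshold when control 4, its highest control, was left out (+0.92, adjusted p = 0.0313, limma).

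Srp54a, the GTPase that holds the signal peptide, gave different answers at its probe sets. At the brightest, controls had 9.04, 9.07, 8.58 and 8.93 and L. brevis rats 8.94, 9.04, 9.05 and 8.86, a difference of +0.07 (SE 0.12) with full overlap. At the second, controls had 7.83, 7.79, 7.80 and 7.94 and L. brevis rats 7.54, 7.52, 7.48 and 7.47, a difference of -0.34 (SE 0.04, adjusted p = 0.0569, limma) without overlap. The remaining probe set held 6.69 throughout. Srp9 and Srp14, the pair that slows elongation, and Srp19, which helps the particle assemble, held 8.65, 10.42 and 8.71. The receptor subunits Srpr (now Srpra) and Srprb held 9.42 and 9.52 at their brightest probe sets. The second Srprb probe set differed by +0.54 (SE 0.28), from 7.55 to 8.14 in controls and from 7.73 to 8.91 in L. brevis rats, so that the diets overlapped.

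The translocon genes differed little between diets at their brightest probe sets, and the diets overlapped in each. The 6 varying members, of 9, spanned -0.05 to +0.25 with a median of 0.003, which was -0.037 under quantile normalization and -0.24 with the GAPDH covariate. Sec61a1, the channel itself, had means of 9.48 ± 0.27 and 9.46 ± 0.23 (SD, n = 4 each), and its partner Sec61b had 10.51 ± 0.17 and 10.46 ± 0.18. Sec62, which serves post-translational import, was the tightest member, with all 8 rats between 10.51 and 10.60. Sec63, the J-domain partner that brings the chaperone BiP to the channel, had 9.21 ± 0.12 and 9.21 ± 0.13. Of the translocon-associated TRAP complex, Ssr4 had 10.26, 10.54, 9.91 and 10.08 in controls and 10.21, 10.61, 10.45 and 10.52 in L. brevis rats. The groups overlapped, and the difference of +0.25 (SE 0.16) was the largest of the machine. Ssr3 had 10.38, 11.07, 10.66 and 11.06 in controls and 10.41, 10.77, 11.02 and 11.20 in L. brevis rats, +0.06 (SE 0.24). Sec61g, Ssr1 and Ssr2 held 10.34, 8.85 and 8.81 at their brightest probe sets.

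All 4 varying subunits of signal peptidase were higher on average in L. brevis livers, each by less than the spread among rats, and the direction did not hold under every setting. Spcs2 had 9.31, 9.94, 8.96 and 9.69 in controls and 9.27, 9.88, 9.92 and 10.29 in L. brevis rats, a difference of +0.37 (SE 0.30). Spcs3 had 10.01, 10.85, 10.75 and 11.06 in controls and 10.28, 10.82, 11.22 and 11.39 in L. brevis rats, +0.26 (SE 0.33). In both genes L. brevis 1 lay among or below the controls and L. brevis 4 was highest. The catalytic subunits Sec11a and Sec11c differed by +0.08 (SE 0.12) and +0.15 (SE 0.26), and Spcs1 held 10.19. The median of the 4 was +0.21, but -0.29 with the GAPDH covariate, -0.011 without L. brevis 3 and 4 and just below 0 without control 1 and 3.

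**Figure D2:**
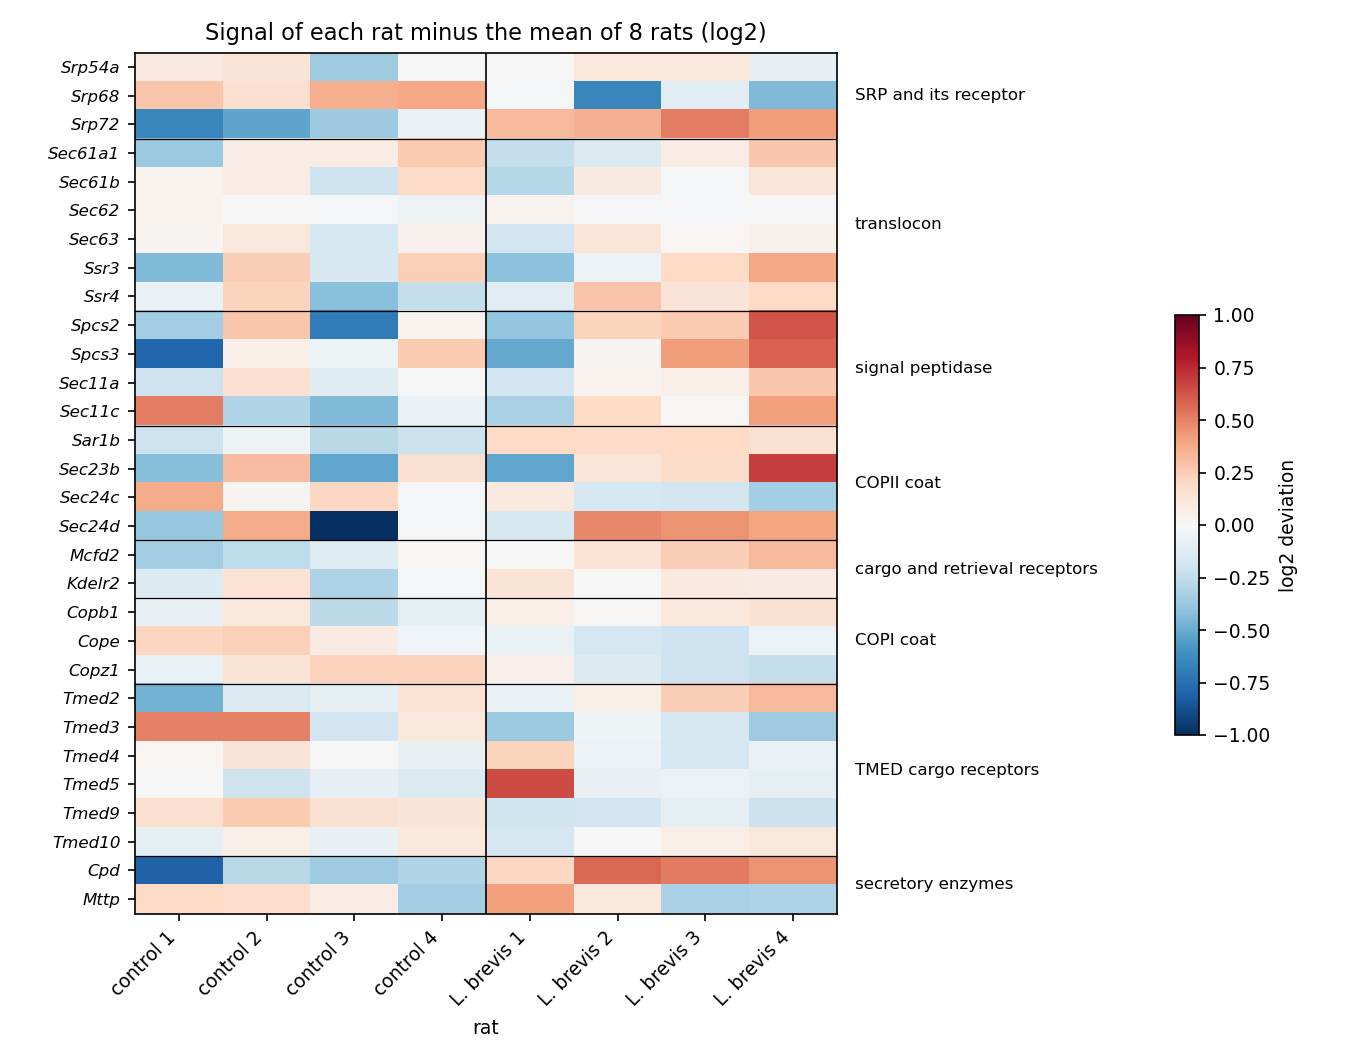
Signal of each rat minus the mean of the 8 rats (log2, colour) for the 30 varying members, with rats in columns and members in rows grouped by machine; the colour scale is exceeded only by Sec24d in control 3. Srp72, Sar1b and Cpd are red in all 4 L. brevis rats, while the signal peptidase rows are blue in L. brevis 1 and mostly red in L. brevis 4.

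In the COPII coat, Sar1b had the smallest spread within each diet of the 4 varying genes, whose median difference was +0.31, or -0.071 with the GAPDH covariate and 0.0018 without control 1 and 3. Sar1b is the GTPase whose loss blocks export of large lipoproteins from the ER. It had 10.44, 10.61, 10.37 and 10.44 in controls and 10.85, 10.85, 10.85 and 10.80 in L. brevis rats. All L. brevis values were higher, with means of 10.46 ± 0.10 and 10.84 ± 0.02 (SD, n = 4 each), a difference of +0.37 (SE 0.05, adjusted p = 0.133, limma), 1.29-fold. The difference was +0.30 under quantile normalization and +0.32 with the GAPDH covariate, and it passed the adjusted threshold when control 2, its highest control, was left out (+0.42, adjusted p = 0.00295, limma). The paralog Sar1a held 10.17 and 9.10 at its 2 probe sets, so the paralogs cannot be compared here.

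Sar1b lies head to head with another member, Sec24a, which had no probe set of its own. In GRCr8 Sar1b starts at position 36525365 of chromosome 10 on the + strand and Sec24a at 36525303 on the - strand, and the 61 bases between these starts are shown because both genes are read outward from them. No capitals are used, as neither CCAAT nor the GC box GGGCGG was found in this stretch on either strand.
Sar1b and Sec24a, chr10:36525304-36525364, + strand: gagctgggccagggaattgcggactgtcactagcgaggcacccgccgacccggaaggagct
The Sar1b window as a whole held CCAAT, as did 39.1% of the members' windows and 37.5% of all windows. GC boxes were in 65.2% of the members' windows, against 33.1% of all windows and 41.8% of those of protein-coding genes, and the Sar1b window had none.

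Among the cargo-binding Sec24 proteins, Sec24d and Sec24c differed in opposite directions. Sec24d had 9.33, 10.08, 8.59 and 9.69 in controls and 9.55, 10.19, 10.16 and 10.10 in L. brevis rats. The diets overlapped, control 3 was lowest, and the difference was +0.58 (SE 0.35), or +0.30 without control 3 and +0.11 without control 1 and 3. Sec24c had 10.00, 9.66, 9.84 and 9.63 in controls and 9.73, 9.47, 9.45 and 9.30 in L. brevis rats, -0.30 (SE 0.12), with overlap through L. brevis 1. With the GAPDH covariate the Sec24d difference was -0.15 and that of Sec24c was 0.004. Sec23b, of the inner coat, differed by +0.24 (SE 0.32), from 8.88 ± 0.41 to 9.12 ± 0.49 (SD, n = 4 each), or -0.56 with that covariate. The outer coat genes Sec13 and Sec31a and the cargo adaptor Sec24b held 8.96, 7.18 and 7.47.

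Mcfd2 and Lman1 form the receptor that carries coagulation factors V and VIII out of the ER. Mcfd2 had 10.52, 10.60, 10.74 and 10.87 in controls and 10.87, 11.00, 11.10 and 11.18 in L. brevis rats. The diets met at 10.87, and the difference was +0.36 (SE 0.10, adjusted p = 0.347, limma), or +0.19 with the GAPDH covariate. Lman1 held 6.99. Of the receptors that return ER proteins bearing the KDEL signal, Kdelr2 had 10.05, 10.33, 9.88 and 10.18 in controls and 10.33, 10.18, 10.29 and 10.27 in L. brevis rats. The difference of +0.16 (SE 0.10) lay within the spread of the controls, and Kdelr1 held 10.25.

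The COPI coat differed in both directions by small amounts. Cope, the epsilon subunit, had 9.26, 9.29, 9.12 and 9.01 in controls and 8.98, 8.87, 8.84 and 8.98 in L. brevis rats. Its diets did not overlap, by a narrow margin, with a difference of -0.25 (SE 0.07, adjusted p = 0.347, limma), 1.19-fold, and they overlapped after median centring. Copz1, the zeta subunit, had 9.74, 9.94, 10.03 and 10.04 in controls and 9.86, 9.67, 9.59 and 9.56 in L. brevis rats, -0.27 (SE 0.10), with L. brevis 1 above control 1. Copb1 differed by +0.17 (SE 0.08), from 9.49 ± 0.15 to 9.66 ± 0.06 (SD, n = 4 each). Copa, Copb2, Copg1 and Arcn1 held 9.75, 9.69, 7.84 and 9.82. The second probe set of Arcn1, the delta subunit, differed by +0.39 (SE 0.15), with 7.08 to 7.42 in controls and 7.35 to 7.87 in L. brevis rats. The median of the 3 varying COPI genes was -0.25, and -0.043 when all varying probe sets of a gene were averaged, which adds Arcn1.

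**Figure D3:**
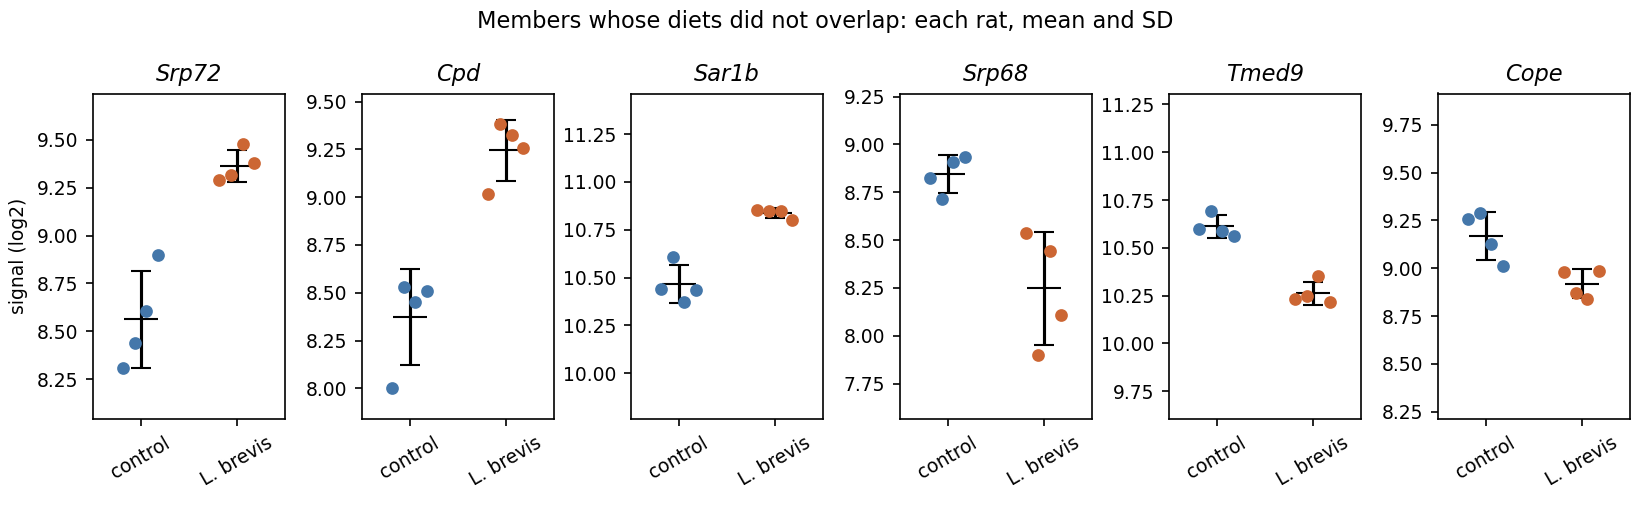
Signal (log2, vertical axis) of each rat for the 6 members whose diets did not overlap, with the mean and SD of 4 rats per diet; every panel spans the same log2 range. Srp72, Cpd and Sar1b lie higher and Srp68, Tmed9 and Cope lower in L. brevis livers.

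The TMED proteins, also called the p24 family, are cargo receptors that cycle between ER and Golgi, and the 6 varying genes of 8 differed in both directions, 3 each way. Tmed9 had 10.60, 10.70, 10.59 and 10.56 in controls and 10.23, 10.25, 10.35 and 10.22 in L. brevis rats. All L. brevis values were lower, with means of 10.61 ± 0.06 and 10.26 ± 0.06 (SD, n = 4 each), a difference of -0.35 (SE 0.04), 1.27-fold. It stood at -0.42 under quantile normalization and -0.39 with the GAPDH covariate. Tmed9 passed the adjusted threshold without L. brevis 3, the L. brevis rat nearest the controls (-0.38, adjusted p = 0.0343, limma). The second Tmed9 probe set held 8.50. Tmed3 had 8.13, 8.12, 7.44 and 7.73 in controls and 7.26, 7.58, 7.46 and 7.27 in L. brevis rats. The diets overlapped through control 3, with a difference of -0.46 (SE 0.18). Tmed10 had 9.90 ± 0.10 and 9.90 ± 0.12, and Tmed4 differed by -0.04 (SE 0.09) at its brightest probe set and +0.34 (SE 0.21) at its second. Tmed2 differed by +0.28 (SE 0.15), from 10.81 ± 0.25 to 11.09 ± 0.17. Tmed5 differed by +0.21 (SE 0.19) through L. brevis 1 at 8.36, while the other 7 rats lay between 7.51 and 7.72, and by +0.03 without that rat. Tmed1 and Tmed7 held 7.39 and 10.51 at their brightest probe sets. The median of the 6 was -0.016, and +0.021 after median centring.

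Cpd, carboxypeptidase D, trims basic residues from the ends of secretory proteins in the late Golgi. It had 8.0, 8.53, 8.45 and 8.51 in controls and 9.02, 9.38, 9.33 and 9.26 in L. brevis rats. All L. brevis values were higher, and the difference of +0.87 (SE 0.15, adjusted p = 0.235, limma), 1.83-fold, was the largest among the members at a brightest probe set. It was +0.75 without control 1, the lowest rat, and +0.62 with the GAPDH covariate. A second Cpd probe set held 6.33. Mttp, which loads lipid onto apolipoprotein B in the ER, had 11.24, 11.21, 11.11 and 10.69 in controls and 11.45, 11.15, 10.72 and 10.73 in L. brevis rats. The diets overlapped almost fully, at -0.05 (SE 0.21), or +0.36 with the GAPDH covariate.

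Probe sets of 1 gene often disagreed on the diet difference, and most of the dimmer varying probe sets followed the GAPDH 5' minus 3' signal of the array. The second Tmed2 probe set had 6.61, 7.63, 6.74 and 7.55 in controls and 7.19, 8.74, 8.71 and 9.45 in L. brevis rats. Its difference of +1.39 (SE 0.54) was far above the +0.28 of the first probe set, and its order across the rats was nearly that of the GAPDH values (Pearson r = 0.979, exact permutation p = 0.000124, adjusted p = 0.00145; Spearman rho = 0.952, exact p = 0.00114, adjusted p = 0.0111; n = 8). Without L. brevis 4 and control 3, the arrays farthest from the median of the GAPDH signal, r was 0.975, and over deviations from the diet means it was 0.957. Adjustment was over the 39 varying probe sets of members. The second Sec61a1 probe set ran from 7.07 to 7.61 in controls and from 7.20 to 8.44 in L. brevis rats, +0.56 (SE 0.29), against -0.02 at the first. The 3 Ssr3 probe sets differed by +0.06, +0.37 and +0.77 from the brightest to the dimmest, and the dimmer varying probe set of Sec63 by +0.54 (SE 0.22), from 6.93 to 7.64 in controls and 7.47 to 8.23 in L. brevis rats, against -0.0034 at the brightest.

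Of the 39 varying probe sets, 14 (35.9%) had r above 0.8 with the GAPDH signal and 1 (2.56%), that of Sec24c, had r below -0.8, against 14.8% and 14.9% of all 6323 varying probe sets. Of the 9 that were not the brightest of their gene, 7 were above 0.8, with r from 0.857 to 0.979. The other two were the second probe sets of Srp54a, with the opposite sign (r = -0.714, exact permutation p = 0.0635, adjusted p = 0.10), and of Tmed4 (r = 0.614, exact permutation p = 0.112, adjusted p = 0.151). Of the 30 brightest, 7 were above 0.8: Spcs2, Sec11a, Sec23b, Sec24d, Mcfd2, Tmed2 and Cpd. Over deviations from the diet means, r at the brightest probe sets ran from -0.940 (Sec24c) to 0.979 (Tmed10). It was 0.718 for Tmed2, 0.760 for Sec61a1, 0.959 for Ssr3 and 0.762 for Sec63. Their dimmer varying probe sets had 0.957 (Tmed2), 0.956 (Sec61a1), 0.964 and 0.870 (Ssr3) and 0.709 (Sec63). Thus the brightest probe sets of these genes also followed the GAPDH signal within the diets. These correlations are over the same 8 rats and share the arrays, so they are not independent of each other. Within 1 diet there were only 4 rats, too few for a value of its own. For the members whose diets did not overlap, r was 0.775 for Srp72, 0.845 for Cpd, 0.763 for Sar1b, -0.759 for Srp68, -0.627 for Tmed9 and -0.65 for Cope, and over deviations from the diet means 0.410, 0.671, 0.360, -0.406, 0.338 and -0.157. The exact permutation p of these 6, adjusted over the 39, were 0.0641, 0.0316, 0.0689, 0.0641, 0.145 and 0.124. All permutations here ignored diet. These 6 were picked because their diets did not overlap, and the GAPDH measure also differed by diet. Their p, those of the Spearman rho included, therefore partly measure the diet difference again, and nothing is read from them. The Spearman rho were 0.762, 0.810, 0.524, -0.738, -0.524 and -0.524, with adjusted exact p of 0.0754, 0.0607, 0.240, 0.0813, 0.240 and 0.240, and without the 2 farthest arrays r was 0.729, 0.857, 0.666, -0.615, -0.433 and -0.722.

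**Figure D4:**
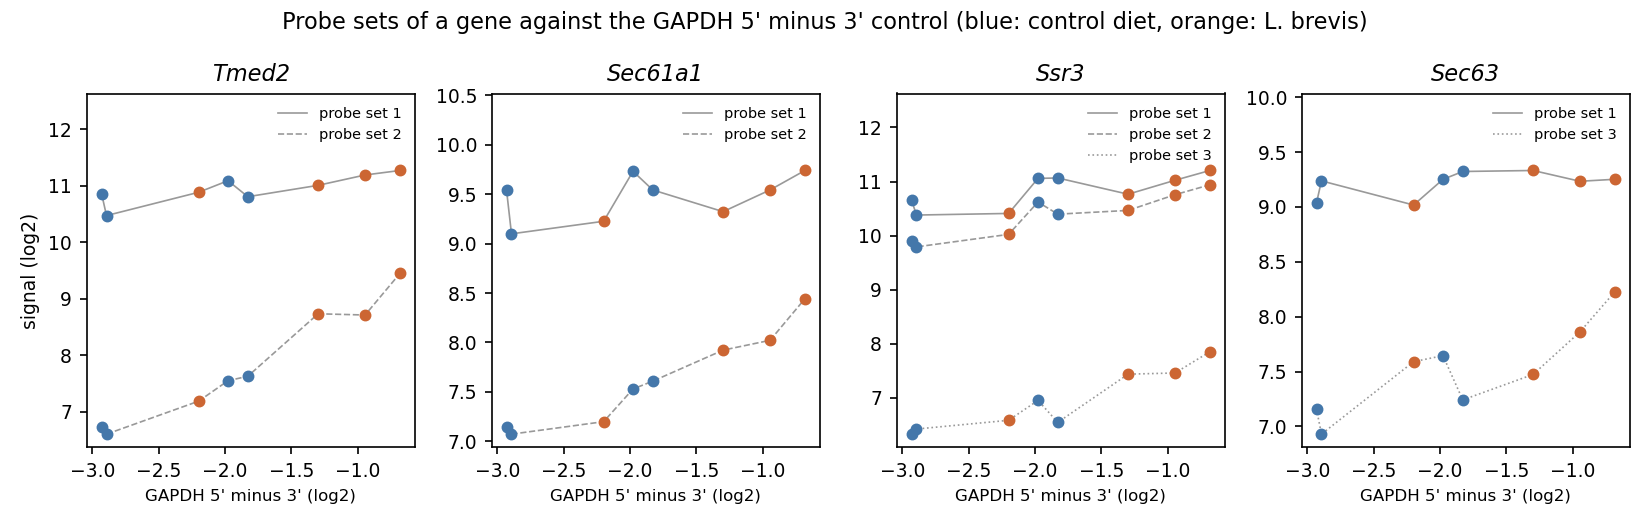
Signal (log2, vertical axis) of the varying probe sets of Tmed2, Sec61a1, Ssr3 and Sec63 against the GAPDH 5' minus 3' control signal of the array (log2, horizontal axis), 1 point per rat, blue for control and orange for L. brevis; probe sets are numbered from the brightest and joined by lines. The dimmer probe sets climb with the control signal, as in Tmed2 from 6.61 to 9.45, while the brightest change less.

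Further genes of the same route, listed by function, also differed in both directions. Of 98 listed genes 96 were measured and 44 varied at their brightest probe set, 26 higher and 18 lower, with a median of 0.04 and 0 past the adjusted threshold in limma (before adjustment, 3 were higher and 8 lower with p under 0.05, beside 6.91% and 13.7% of all varying genes). The oligosaccharyltransferase and translocon partners had 7 higher and 5 lower, the tail-anchor and membrane insertion genes 1 higher and 4 lower, the ER exit site genes 9 and 4, the ARF cycle genes 4 and 1, and the tethers and SNAREs 5 and 4. The smallest unadjusted p on the lower side were those of Stx5, a Golgi SNARE (-0.44), Sgta, a chaperone of tail-anchored proteins (-0.47), and Sec16a, the scaffold of ER exit sites (-0.49), all without overlap between diets, as were 7.41% of all varying genes in that direction, and with adjusted p of 0.237, 0.250 and 0.293 (limma). With the GAPDH covariate these were -0.34, -0.28 and -0.30. On the higher side they were Pdcd6, a calcium sensor that binds Sec31a (+0.36), the magnesium transporter and oligosaccharyltransferase subunit Magt1 (+1.13), and the small GTPase Arf4 (+0.40), with adjusted p from 0.347 to 0.362 (limma), and +0.09, +0.15 and +0.13 with the GAPDH covariate. Arf4 did not overlap between diets, while Pdcd6 and Magt1 did. Of the 44, 1 was higher and 4 were lower without overlap, beside 3.02% and 7.41% of all varying genes. Tmco1, a translocon partner, differed by +0.45 with all rats in the fit (adjusted p = 0.519, limma), and its diets overlapped. L. brevis 1, at 9.85, lay below all controls (9.94 to 10.10), and the other L. brevis rats lay above them. Without L. brevis 1, the rat that went the other way, Tmco1 passed the adjusted threshold (adjusted p = 0.0184, limma). It was the only 1 of the 44 to do so under any setting tried.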

How the data were processed

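The authors' deposited table gives 1 log2 value per probe set of an Affymetrix rat array with a 3' in vitro transcription label, per the labels' protocols. Summarisation, normalization and scan dates are not given in the sources used here. Control probe sets (57) were left out of the fits. In the platform annotation 20826 of 31042 probe sets had 1 symbol, 436 several and 9780 none. Symbols were updated through gene identifiers. No 2 arrays of a diet shared a value over the varying probe sets, and array medians lay between 6.61 and 6.63.

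Diets were compared with limma 3.58.1 in R 4.3.3 (lmFit, eBayes with an intensity trend, all probe sets, Benjamini-Hochberg). The fit was tested on simulated data with independent noise at each probe set. These held no array-wide signal like that of GAPDH, so the test does not cover one. Members and lists were chosen with earlier results of these data known. Values of every rat were given for the 2 varying members of each machine with the largest absolute difference, for Srp72, Sar1b, Sar1a, Tmed9, Cpd and Mttp, and for probe sets singled out afterwards. Of the other pathway genes, the 3 with the smallest unadjusted p in each direction were named. Alternatives were other normalizations, filters, probe set choices, covariates, a block and left-out arrays. The number of arrays limits the precision.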

Additional observations from a re-analysis of the deposited data

Results flagged for a closer look

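In 4 of the 60 groups of 4 rats looked at (30 members, both diets), 1 rat stood apart from the other 3 by most of the group's range, where chance gives about 1 such group in 20 if groups are independent, and these share 8 arrays. Tmed5 was 8.36 in L. brevis 1, against 7.61 to 7.65 in the other L. brevis rats. Sec24d was 9.55 in L. brevis 1, against 10.10 to 10.19. Cpd was 8.0 in control 1, against 8.45 to 8.53 in the other controls. Sar1b was 10.80 in L. brevis 4, against 10.85 in each of the other L. brevis rats, a gap of small absolute size.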

How the results depend on the processing

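The count of members past the adjusted threshold was 0 under every planned setting that kept all 8 arrays, a replicate block among them (0 members and 0 pathway genes, smallest adjusted p of a member 0.0525, limma). Deviations of same-numbered rats were all positively correlated (0.359, 0.203, 0.0778 and 0.381). Between rats of different number the correlations ran from -0.519 to 0.397, and controls 3 and 4 correlated best with L. brevis rats of another number. The labels name no pairing, so outside the block fit the numbers were not taken as pairs. Whether same-numbered rats shared a processing step was not tested. Leaving out 1 rat gave 0 to 1 members and 0 to 1 pathway genes. Where Srp72, Sar1b or Tmed9 passed, the rat left out was the one of its diet nearest the other diet. Such a choice lowers the p by itself, so these passes add nothing to the fits of all 8 arrays. The count of members without overlap was 6, 5 after median centring and 6 to 10 with 1 rat left out, the 10 being without L. brevis 1. With the GAPDH covariate the median was -0.027 for SRP, -0.24 for the translocon, -0.29 for signal peptidase, -0.071 for COPII, 0.11 for the cargo and retrieval receptors and -0.095 for TMED, against 0.067, 0.003, 0.21, 0.31, 0.26 and -0.016. Averaging all varying probe sets of a gene gave 0.20 for SRP, 0.26 for the translocon, -0.043 for COPI and 0.079 for TMED. With 1 rat left out the medians ran from -0.041 to 0.12 for SRP, -0.037 to 0.059 for the translocon, 0.074 to 0.38 for signal peptidase, 0.20 to 0.41 for COPII, 0.22 to 0.30 for the cargo and retrieval receptors, -0.27 to -0.21 for COPI and -0.044 to 0.014 for TMED. The causes were not tested. Without L. brevis 3 and 4, and without control 1 and 3, were settings added after the data were seen. Without control 1 and 3 the median was 0.0018 for COPII and 0.16 for the cargo and retrieval receptors. Of 479 member differences under an alternative, 29 moved by more than the SD within a diet and 62 changed sign.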
